A study of Macaca fascicularis with 20 samples.

Results

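Natural killer (NK) cells sorted as CD27+ from cynomolgus macaque spleen were compared with NK cells sorted as CD27lo, with the CD11b status of the cells as a second term of the same model. All NK arrays whose label names a CD27 gate entered, which gave 18 of the 20 arrays of the series: 9 CD27+ arrays (5 CD27+CD11b+ and 4 CD27+CD11blo) and 9 CD27lo arrays (5 CD27loCD11b+ and 4 CD27loCD11blo). Both B cell arrays were left out. Cryopreserved spleen cells were thawed, and live CD45+ cells without CD3, CD14, CD20 and HLA-DR were sorted as NKG2A+CD8a+ cells on CD27 and CD11b. No group was stimulated. Total RNA (50 ng) was amplified by an isothermal whole-transcriptome method before labelling with Cy3.

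The animals were male and female and carried 3 labels of geographic origin. Replicate 1 of every subset came from an animal labelled 4 years old, and replicate 2 from one of unstated age. Replicate 3 was 12 years old for CD27+CD11b+ cells, 10 for CD27+CD11blo cells, 11 for CD27loCD11b+ cells and 9 for CD27loCD11blo cells. Replicate 4 was 5 years old in both CD11b+ subsets and 18 years old in both CD11blo subsets, and replicate 5, which only the CD11b+ subsets have, was 18 years old. The labels call the samples biological replicates and do not say whether one animal gave several subsets. In the donor grouping used below as an alternative block, replicates 1, 2 and 3 carried donor labels 1, 2 and 3 in every subset. CD11b+ replicate 4 carried label 4, and CD11blo replicate 4 and CD11b+ replicate 5 carried label 5. Sample sizes here therefore count arrays, which may share an animal, and the main tests treat arrays as independent.

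CD27 belongs to the superfamily of tumour necrosis factor receptors. Its ligand is CD70, and its cytoplasmic tail binds TRAF adaptors that lead to NF-kB and JNK activity. In mouse, where CD27 and CD11b were first used together to stage NK cells, CD27 is lost from the surface late in maturation, after CD11b has appeared. In human blood the CD27-bearing NK cells are mostly those with high CD56, which make cytokines readily, while the mature cells with low CD56 carry most cytotoxic protein.

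The CD27 transcript was higher on CD27+ than on CD27lo arrays. Levels here are log2 signal relative to the 75th percentile of the same array, so that 0 is the level of that percentile, and levels of different genes are set side by side only as the brightness of their probes. CD27 had a lowest, median and highest level of 3.66, 3.88 and 4.87 on CD27+ arrays, against 2.31, 3.15 and 4.88 on CD27lo arrays. All 9 CD27+ arrays lay above the CD27lo median, and 7 of 9 CD27lo arrays lay below every CD27+ array. The means were 4.06 ± 0.46 on CD27+ arrays and 3.21 ± 0.76 on CD27lo arrays (SD, n = 9 arrays each). The difference was 0.84 ± 0.30 (SE, two-sided exact permutation p = 0.0154, exchanging CD27 labels within CD11b status). It was 0.68 among CD11b+ cells and 1.05 among CD11blo cells. In the fit across all genes with limma its unadjusted p was 0.0103 and its Benjamini-Hochberg adjusted p was 0.187.

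One array went against its label. The array labelled CD27loCD11blo replicate 4 held the highest CD27 level of all 18 arrays, 4.88, and it was also the dimmest CD27lo array. Without it the CD27 difference was 1.05 (limma, unadjusted p = 0.000534). As the array was singled out by its own CD27 level, that p-value is biased toward a difference. With any other single array left out, the CD27 difference was 0.70 to 0.94 (limma, unadjusted p from 0.00548 to 0.0253). By slide, the difference was 1.48 on the first slide, 0.41 on the second and 0.23 on the third, and neither of the smaller slides reached an unadjusted p of 0.05 alone. The third slide held only CD11b+ arrays, and there the CD27loCD11b+ replicate 4 array read 3.83, above both CD27+ arrays.

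**Figure D1:**
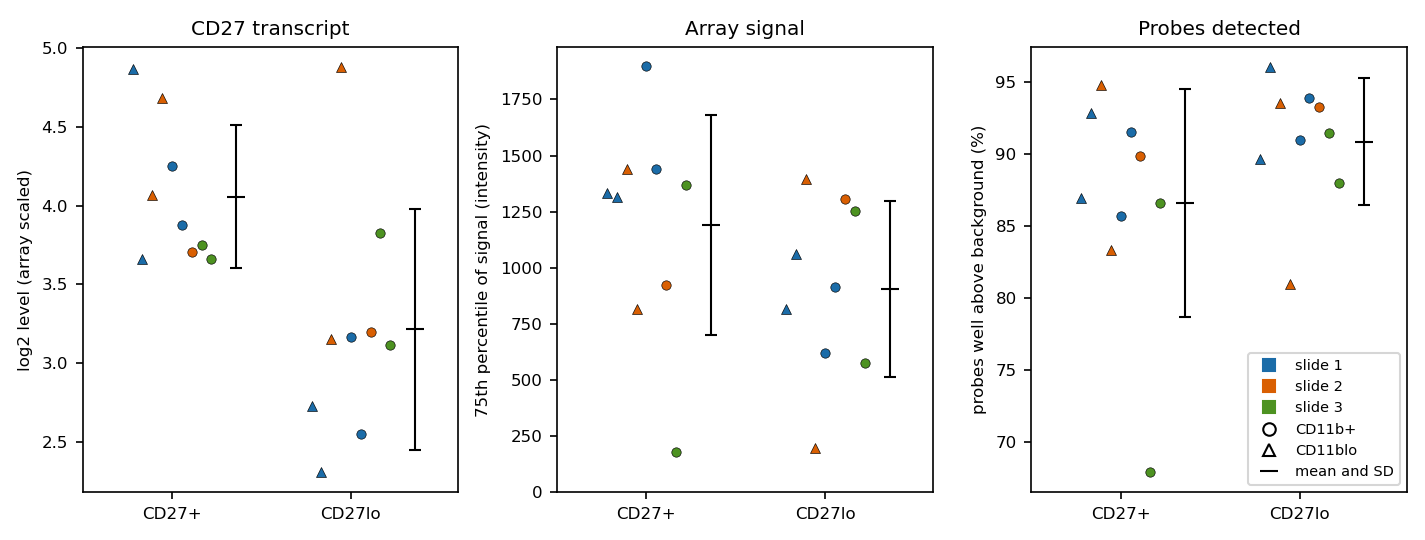
CD27 transcript level (log2, relative to the 75th percentile of the array), array signal (75th percentile of the processed signal, intensity) and share of probes well above background (%) on each of the 9 CD27+ and 9 CD27lo arrays; colours are slides, shapes CD11b status, and bars mean and SD. CD27 is at 3.66 or above on every CD27+ array, and signal separates the groups on the first slide only.

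Array signal moved with CD27 status on the first slide. There the 75th percentile of the processed signal was 1314 to 1897 on the 4 CD27+ arrays, against 622 to 1061 on the 4 CD27lo arrays, without overlap. On the second slide it was 818 to 1439 on CD27+ arrays and 199.6 to 1396 on CD27lo arrays, and on the third 180.0 to 1369 and 578 to 1251, with overlap on both. Over all 18 arrays the mean log2 signal was 10.0 ± 1.0 on CD27+ arrays and 9.64 ± 0.88 on CD27lo arrays, a difference of 0.37 (two-sided exact permutation p = 0.454). Detection ran the other way: 86.6 ± 7.9% of probes were well above background on CD27+ arrays and 90.9 ± 4.4% on CD27lo arrays, a difference of -4.24 percentage points (exact permutation p = 0.193; 0.0430 when labels were exchanged within same-numbered pairs). Without the CD27loCD11blo replicate 4 array the signal difference was 0.093 (exact permutation p = 0.855) and the detection difference -5.72 percentage points (exact permutation p = 0.0382). Without the CD27+CD11b+ replicate 4 array they were 0.70 (exact permutation p = 0.0420) and -1.89 percentage points (exact permutation p = 0.386). The part of signal in the gene results below was not tested beyond a fit with signal as a covariate, in which the CD27 difference was 0.92 and no gene passed.

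No gene passed an adjusted p of 0.05 between CD27+ and CD27lo arrays (0 of 12192, or 0%; limma, lowest adjusted p = 0.178). At an unadjusted p under 0.05 there were 2688 genes (22%), 752 of them higher (6.17%) and 1936 lower (15.9%) on CD27+ arrays. Without the CD27loCD11blo replicate 4 array these were 2307 genes, 718 higher and 1589 lower, and 0 passed adjustment. With array weights 4394 genes passed adjustment, and on the first slide alone 3764. The weights were 1.85 to 3.12 on the replicate 2 arrays of the first slide and 0.68 to 1.44 on its replicate 1 arrays. They were 0.35 to 2.24 on the second slide and 0.25 to 0.89 on the third. Both counts use the first slide, so they are not independent. Genes also passed when CD27loCD11b+ replicate 4 (38 genes) or CD27+CD11b+ replicate 1 (1 gene) was left out, and in no other fit with a single array left out. The CD11b term of the same model gave 655 genes at that level (5.37%) and 1 past adjustment (0.0082%). The CD27 difference depended on CD11b status for no gene after adjustment (0%), and for 175 (1.44%) at an unadjusted p under 0.05. The gene values that follow are therefore measurements that did not pass correction, and each carries its standard error.

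The median difference of all 12192 genes was -0.35, and 4120 genes (33.8%) had a positive one. This shift depended on the level of the gene. When the genes were split by mean level into 5 groups of equal size, the median difference was -0.65 in the dimmest group, then -0.46, -0.29 and -0.16, and -0.06 in the brightest. The dimmest group had 22 genes higher and 556 lower on CD27+ arrays at an unadjusted p under 0.05, and the brightest had 367 higher and 318 lower. The shift also depended on scaling: it was -0.12 after quantile normalization, with 933 genes higher and 1316 lower, and -0.29 after normexp background correction, with 932 higher and 1239 lower. It was -0.60 on the first slide, -0.18 on the second and 0.02 on the third. Gene lists are given relative to the shift of all genes, which does not remove its dependence on level. Relative to the medians of their members' own level groups, every list median kept its sign, but sizes changed. Immediate early genes were then at 0.97, dual-specificity phosphatases at 1.03 and heat shock genes at 0.46. Activating receptors and adaptors were at 0.15 and the mature effector list at -0.29. In each list the members called higher or lower are those with an unadjusted p under 0.05, to be read against the 6.17% and 15.9% of all genes. For lists of mostly bright genes the closer reference is the brightest group, with 367 higher and 318 lower of 2439. In that group were 20 of 22 ribosomal, 10 of 13 cytotoxic granule and 18 of 28 immediate early genes.

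**Figure D2:**
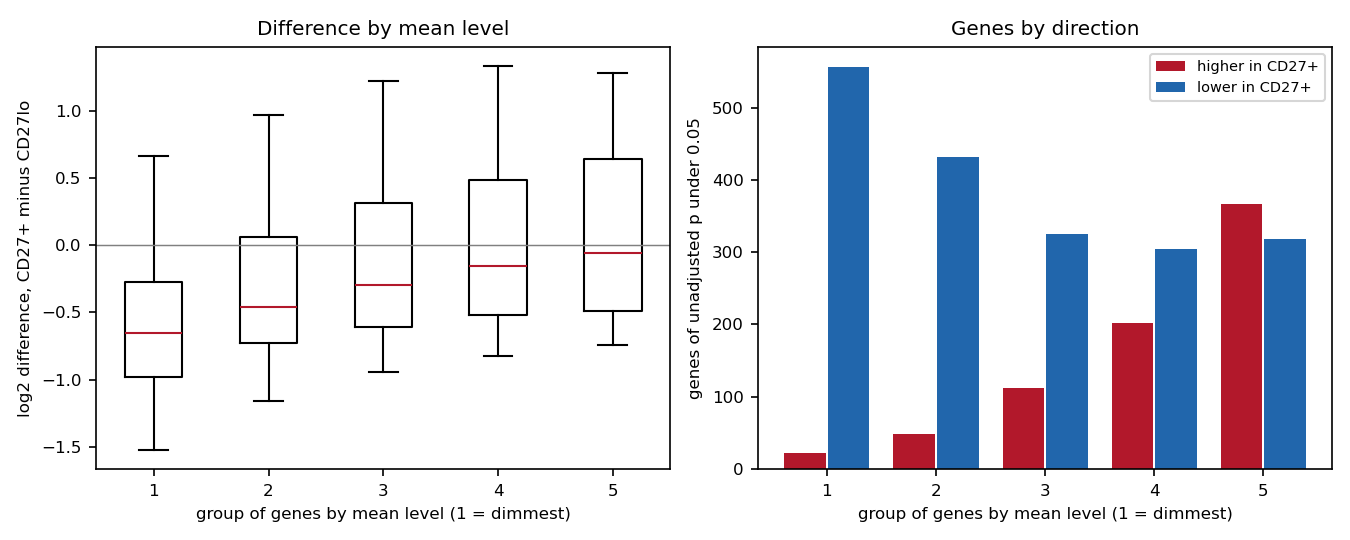
Left, log2 difference (CD27+ minus CD27lo) of 12192 genes in 5 groups of mean level (box, quartiles; line, median; whiskers, 5th to 95th percentile). Right, genes of unadjusted p under 0.05 in each group, higher or lower on CD27+ arrays; lower genes outnumber higher ones in all groups but the brightest.

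The genes of lowest p that were higher on CD27+ arrays were mostly of bright probes. POLR2M encodes a subunit of RNA polymerase II. It had a lowest, median and highest level of 1.11, 1.69 and 2.78 on CD27+ arrays, against -2.86, -0.20 and 0.90 on CD27lo arrays. Every CD27+ array was above every CD27lo array, and the difference was 2.12 ± 0.40 (SE; adjusted p = 0.178). SRSF6, a serine- and arginine-rich splicing factor, had 3.78, 4.14 and 4.92 on CD27+ arrays, against 2.01, 3.24 and 3.69 on CD27lo arrays, and a difference of 1.19 ± 0.25. Its groups did not overlap either. POLR2M and SRSF6 were the only genes of all 12192 to separate fully in this direction (2 genes, 0.0164%).

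DNAJC3, an endoplasmic reticulum co-chaperone that restrains the stress kinase PERK, had a lowest, median and highest level of 1.39, 2.14 and 2.58 on CD27+ arrays, against -2.26, 0.18 and 1.61 on CD27lo arrays. Of the 9 CD27+ arrays, 7 lay above all CD27lo arrays, and the difference was 1.88 ± 0.40. NFKBIB, an inhibitor that holds NF-kB in the cytoplasm, had 0.83, 1.5 and 2.49 on CD27+ arrays, against -2.76, -0.56 and 1.03 on CD27lo arrays. All CD27+ arrays lay above the CD27lo median, and the difference was 2.16 ± 0.50. FURIN, the proprotein convertase, differed by 1.55 ± 0.35, with 8 of 9 CD27+ arrays above all CD27lo arrays. ACP6, a lysophosphatidic acid phosphatase, differed by 1.37 ± 0.30, also with 8 of 9 above.

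The other 6 in this direction were NEDD9, a scaffold of integrin signalling (2.0 ± 0.43), the nuclear kinase gene HIPK1 (1.72 ± 0.37), RERE, a transcriptional corepressor (1.70 ± 0.35), GMPS, which makes GMP (1.62 ± 0.37), PBXIP1, whose protein binds PBX homeobox factors (1.45 ± 0.32), and DNAJB12, an endoplasmic reticulum membrane co-chaperone (2.67 ± 0.61). DNAJB12 was dim on CD27lo arrays, at -4.81 to -2.66, against -4.67 to 1.38 on CD27+ arrays. There 8 of 9 CD27+ arrays lay above all CD27lo arrays, and the ninth lay near the bottom of the CD27lo range.

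The genes of lowest p that were lower on CD27+ arrays were mostly of dim probes. MTMR11, a myotubularin-related gene, had a lowest, median and highest level of -4.87, -3.81 and -1.84 on CD27+ arrays, against -2.79, -2.0 and -1.07 on CD27lo arrays. Of the CD27+ arrays 6 lay below all CD27lo arrays, and the difference was -1.63 ± 0.33 (SE; adjusted p = 0.178). LINGO4, which encodes a leucine-rich repeat membrane protein, had -2.72, -1.94 and -1.74 on CD27+ arrays, against -1.65, -1.18 and -0.08 on CD27lo arrays, a difference of -1.11 ± 0.27 without overlap. LINGO4 and FAM124B were the only genes to separate fully in this direction (2 genes, 0.0164%).

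FAM124B was well above background on 0 of 9 CD27+ arrays and 5 of 9 CD27lo arrays. Its measured means were -6.94 ± 0.69 on CD27+ arrays and -4.53 ± 1.34 on CD27lo arrays (limma, adjusted p = 0.178 for the measured difference). As CD27+ values were at background, the separation of the groups is partly one of background readings. Against the lowest signal well above background the mean was at least 1.66-fold lower in CD27+ cells, a bound that was not itself tested. ASTN1, a neuronal adhesion gene, was well above background on 1 of 9 CD27+ arrays and 9 of 9 CD27lo arrays, with a difference of -2.38 ± 0.52 from values mostly at background. RFTN2, of the raftlin family of membrane raft proteins (-2.97 ± 0.69), KCNK1, a potassium channel gene (-2.11 ± 0.51), and PHACTR3, a regulator of phosphatase and actin (-1.61 ± 0.34), were likewise detected on fewer CD27+ than CD27lo arrays, at 3 against 7, 1 against 5 and 3 against 8 of 9. Under normexp background correction these differences were -0.90 for FAM124B, -0.86 for ASTN1, -1.27 for RFTN2, -0.78 for KCNK1 and -0.79 for PHACTR3. These genes would not have passed the filter of 4 arrays well above background on CD27+ arrays alone. They entered through the group where they are higher, so their detection counts are no separate support.

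EDIL3, an extracellular matrix gene of endothelium, differed by -1.63 ± 0.37 (-0.80 under normexp) and was detected on 5 CD27+ and 9 CD27lo arrays. The remaining 4 were above background on all 18 arrays: ARHGAP20, a GTPase activator (-1.45 ± 0.35), CSMD1, a large membrane protein gene (-1.36 ± 0.31), RNF175, a RING finger gene (-1.19 ± 0.27), and MLANA, a melanocyte antigen gene (-1.15 ± 0.28). All 24 genes of lowest p kept their direction on each of the 3 slides, under every alternative tried and with any single array left out. The choice of these genes used all 18 arrays, so their direction on parts of them is no independent check.

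**Figure D3:**
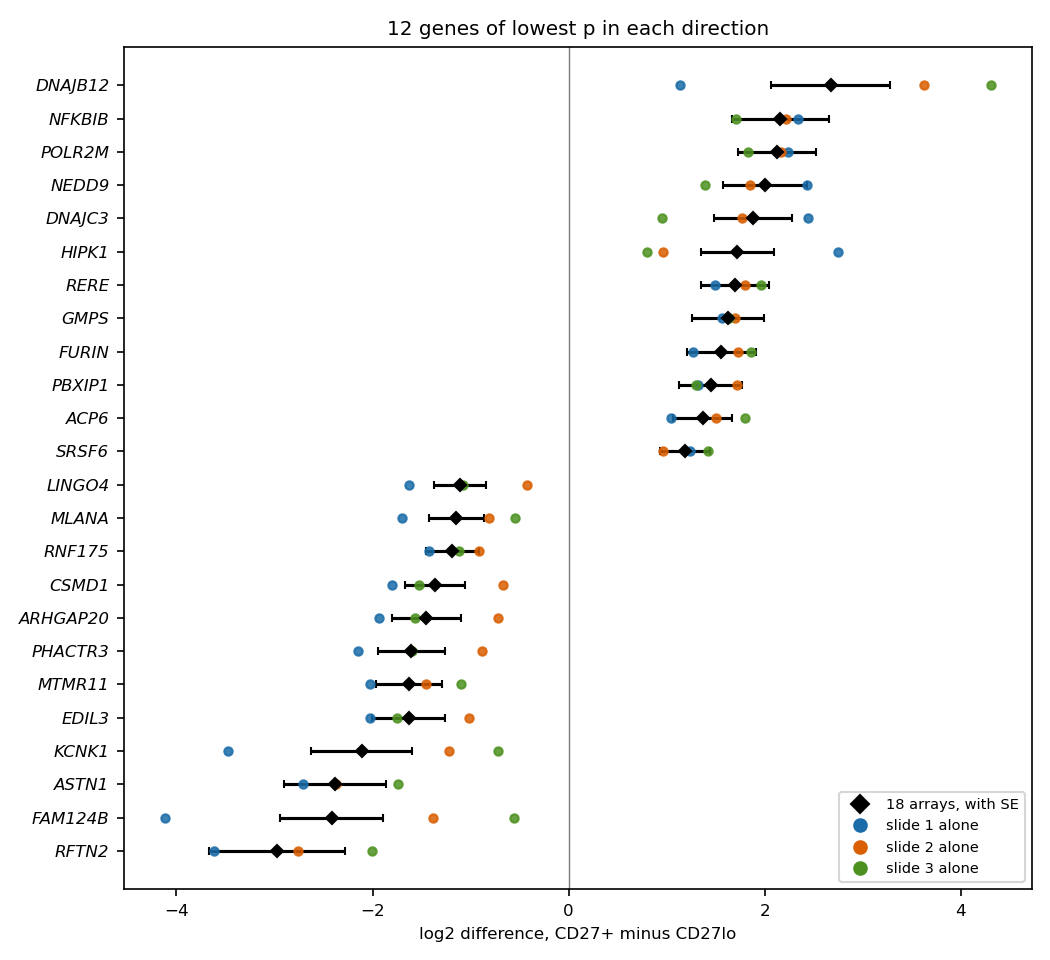
Log2 difference (CD27+ minus CD27lo) of the 12 genes of lowest p in each direction, over 18 arrays with SE (diamonds) and on each slide alone (circles). All 24 lie on one side of 0 on every slide; DNAJB12 is largest on the third slide and FAM124B on the first.

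CD27 itself was one of 13 measured members of its receptor family and ligand list. Of these 7 had a positive difference, 2 were higher and 1 lower, and the list's median difference was 0.07, which is 0.42 above that of all genes. TNFRSF1B, a receptor for tumour necrosis factor, had a lowest, median and highest level of 2.53, 3.90 and 4.58 on CD27+ arrays, against 1.11, 2.61 and 5.39 on CD27lo arrays. The groups overlapped, and the difference was 1.11 ± 0.48. TNFRSF18 (GITR), a costimulatory receptor, differed by -0.67 ± 0.30, and CD40 by -0.61 ± 0.31. A dimmer second probe of CD40 differed by -1.67 (limma over all probes, unadjusted p = 0.00117).

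The signalling chain below CD27 (14 measured members) had 8 positive differences, with 1 higher and 2 lower, and a median of 0.05, 0.40 above all genes. RELA, the p65 subunit of NF-kB, had -0.88, 1.5 and 1.96 as lowest, median and highest on CD27+ arrays, against -1.81, -0.03 and 0.72 on CD27lo arrays. On 7 of 9 CD27+ arrays it lay above all CD27lo arrays, and the difference was 1.21 ± 0.42. IKBKG, the regulatory subunit of the kinase that frees NF-kB, differed by -0.67 ± 0.25, and NFKB2, the precursor of the non-canonical subunit, by -0.55 ± 0.23. The chain's members thus had no common direction.

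NK lineage transcription factors leaned to CD27+ cells. Of 21 measured, 14 had a positive difference and 17 lay above the all-gene median; 4 were higher and 0 lower, and the median was 0.56, or 0.91 above all genes. IRF8, an interferon regulatory factor needed for adaptive NK responses in mouse, had a lowest, median and highest level of 0.77, 1.45 and 3.97 on CD27+ arrays, against -2.28, 0.12 and 1.11 on CD27lo arrays. On 6 of 9 CD27+ arrays it lay above all CD27lo arrays, and the difference was 1.99 ± 0.49 (unadjusted p = 0.000653, adjusted p = 0.178). TOX, which early NK development requires, had -0.55, 1.83 and 3.14 on CD27+ arrays, against -2.67, -0.20 and 1.63 on CD27lo arrays, and a difference of 1.41 ± 0.50. The groups overlapped for TOX, with 5 of 9 CD27+ arrays above all CD27lo arrays. Relative to all genes the median of the transcription factor list was 1.77 on the first slide, 0.35 on the second and 0.36 on the third.

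ETS1, which acts early in NK development, differed by 0.69 ± 0.26 and HOPX, a homeobox-only cofactor, by 0.65 ± 0.30. EOMES, the T-box factor of NK identity, was above background on all 18 arrays and differed by 0.94 ± 0.48 (unadjusted p = 0.0641). EOMES ranged from -0.80 to 3.39 on CD27+ arrays and from -0.25 to 3.16 on CD27lo arrays, and 8 of 9 CD27+ arrays lay above the CD27lo median. The overlap came from 2 arrays, CD27+CD11b+ replicate 3 at -0.80 and CD27loCD11b+ replicate 4 at 3.16. The other CD27+ arrays read 1.68 or more and the other CD27lo arrays 1.34 or less. Because both arrays were picked by their EOMES values, the gap between the rest is no test of separation. On the second slide alone the EOMES difference was -0.30.

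Genes of less mature and of mature NK cells did not divide cleanly by CD27. The list for immature or CD56bright-like cells had 8 of 13 members positive, 2 higher and 2 lower, and a median of 0.66, or 1.01 above all genes. GZMK, a granzyme of CD56bright cells, had a lowest, median and highest level of 1.63, 3.92 and 4.88 on CD27+ arrays, against 0.83, 3.12 and 3.92 on CD27lo arrays. It lay above the CD27lo median on 8 of 9 CD27+ arrays, with a difference of 1.09 ± 0.47, and was lower on the third slide (-0.46). GPR183, an oxysterol-guided migration receptor, differed by 1.12 ± 0.47. CAMK4, a calcium-dependent kinase gene, differed by -1.05 ± 0.41.

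The mature effector list had 2 of 11 members positive, 0 higher and 1 lower, and a median of -0.47, which is 0.11 below that of all genes. This offset had the opposite sign without CD27+CD11b+ replicate 4 (0.12), CD27loCD11b+ replicate 2 (0.082) or CD27loCD11b+ replicate 4 (0.056). B3GAT1, which makes the CD57 epitope of late human NK cells, had -1.97, -1.54 and -1.0 as lowest, median and highest on CD27+ arrays, against -1.91, -0.96 and 0.06 on CD27lo arrays. All CD27+ arrays lay below the CD27lo median, and the difference was -0.64 ± 0.28. ADGRG1 (GPR56), an adhesion receptor of mature cells, differed by -0.47 ± 0.26 and the protease gene PRSS23 by -1.76 ± 1.17. PRDM1, the repressor Blimp-1, differed by 1.36 ± 0.72 in the opposite direction.

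Cytotoxic granule genes leaned to CD27+ cells: 11 of 13 were positive, 3 were higher and 1 lower, and the median was 0.58, or 0.94 above all genes. Of these 13, 10 belong to the brightest of the 5 level groups, and relative to the median of each member's own group the list's median was 0.64. The median was 0.04 among CD11b+ arrays and 1.09 among CD11blo arrays. NKG7, a granule membrane protein gene, had a lowest, median and highest level of -0.19, 1.22 and 2.56 on CD27+ arrays, against -1.69, 0.24 and 2.33 on CD27lo arrays. On 8 of 9 CD27+ arrays it lay above the CD27lo median, and the difference was 1.01 ± 0.47. GZMH differed by 1.23 ± 0.57.

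The main killing genes, PRF1 (perforin) and GZMB (granzyme B), did not separate the groups. PRF1 had a lowest, median and highest level of 0.87, 2.75 and 3.89 on CD27+ arrays, against 0.44, 2.51 and 4.15 on CD27lo arrays, and a difference of 0.37 ± 0.33. GZMB had 5.11, 6.01 and 6.87 on CD27+ arrays, against 4.01, 5.79 and 6.66 on CD27lo arrays, and a difference of 0.27 ± 0.28. STXBP2, which is needed for granules to fuse, differed by -1.13 ± 0.36 and lay below the CD27lo median on all 9 CD27+ arrays.

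The receptor lists had small median differences, while single members differed by more. Among activating receptors and adaptors 9 of 15 were positive, 2 higher and 0 lower, with a median of 0.09, or 0.45 above all genes. The kinase genes SYK and FYN, which act below NK receptors, differed by 1.55 ± 0.67 and 1.48 ± 0.60, the signalling chain gene FCER1G by 0.71 ± 0.38, and NCR3 (NKp30) by -0.50 ± 0.29. Among inhibitory receptors 3 of 6 were positive, with 1 higher and 0 lower. That one was KLRD1 (CD94), the partner of NKG2A, which every array was sorted for. KLRD1 differed by 0.80 ± 0.36 and lay above the CD27lo median on all 9 CD27+ arrays. HAVCR2 (TIM-3) differed by -0.54 ± 0.28.

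Among chemokine and homing receptors 7 of 19 were positive, with 0 higher and 2 lower, and the median was 0.25 above all genes. CXCR1, a receptor for CXCL8, differed by -0.60 ± 0.27, the chemokine receptor gene CCR1 by -1.26 ± 0.68 and CD44, a hyaluronan receptor, by 0.66 ± 0.33. Secreted signals gave 4 of 10 positive, with 2 higher and 1 lower. CCL3, a chemokine of activated NK cells, differed by 0.68 ± 0.30, AREG (amphiregulin) by 1.95 ± 0.68 and CSF2 (GM-CSF) by -0.89 ± 0.39. AREG was well above background on only 6 CD27+ and 4 CD27lo arrays. Cytokine receptors gave 8 of 16 positive, with 2 higher and 0 lower: JAK1, the kinase of common-chain receptors (0.77 ± 0.28), and TGFBR2, the receptor of transforming growth factor beta (1.42 ± 0.54). IL21R differed by -1.09 ± 0.54.

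**Figure D4:**
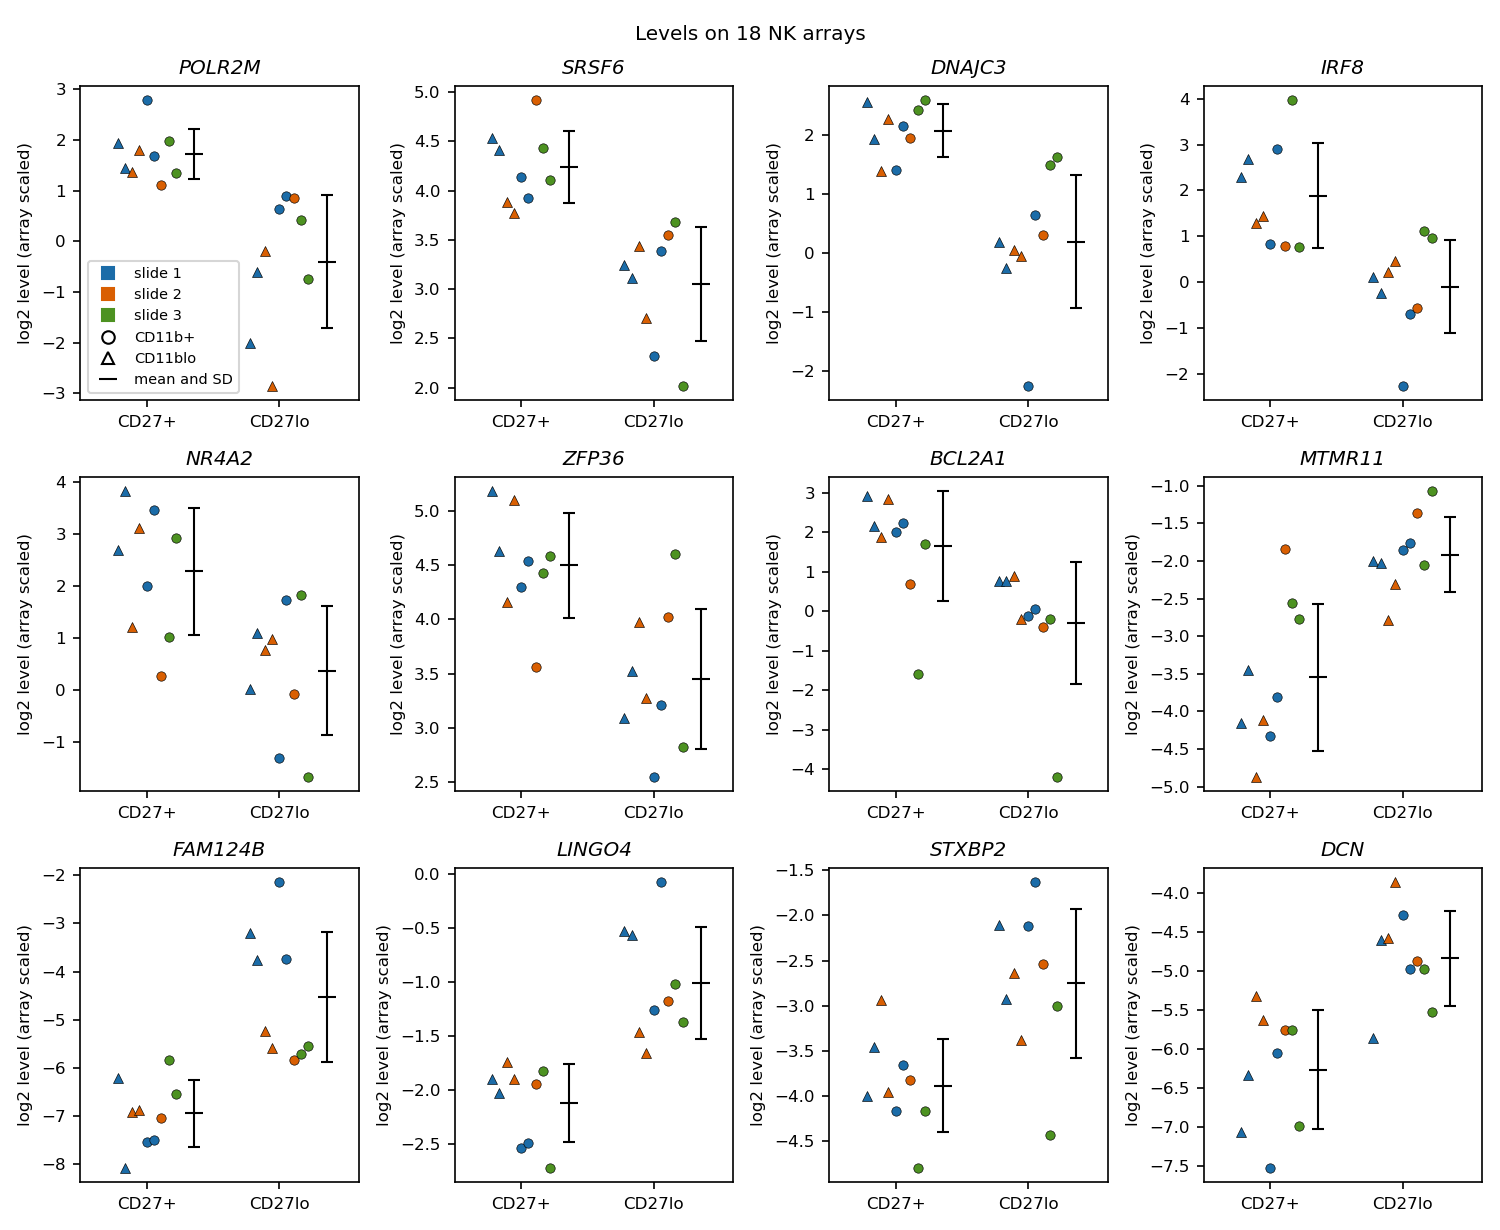
Log2 level of 12 genes on each of the 9 CD27+ and 9 CD27lo arrays, relative to the 75th percentile of the array; colours are slides, shapes CD11b status, bars mean and SD. The groups do not overlap for POLR2M, SRSF6, FAM124B and LINGO4 and overlap for the other 8.

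Immediate early genes had a list median well above that of all genes. Of 28 measured, 25 (89.3%) were positive, 9 (32.1%) were higher and 0 lower, and the median was 0.91, or 1.27 above all genes. ZFP36, which marks cytokine mRNAs for decay, had a lowest, median and highest level of 3.56, 4.54 and 5.18 on CD27+ arrays, against 2.54, 3.27 and 4.60 on CD27lo arrays. All CD27+ arrays lay above the CD27lo median, and the difference was 1.05 ± 0.28 (unadjusted p = 0.00122). NR4A2, an orphan nuclear receptor induced by receptor signalling, had 0.27, 2.68 and 3.81 on CD27+ arrays, against -1.68, 0.76 and 1.82 on CD27lo arrays, a difference of 1.90 ± 0.53. On 6 of 9 CD27+ arrays it lay above all CD27lo arrays.

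ZFP36L2, a related decay factor, differed by 1.15 ± 0.31 and BTG1, an antiproliferative gene of resting lymphocytes, by 1.15 ± 0.36. BTG1 lay above all CD27lo arrays on 8 of 9 CD27+ arrays. Relative to all genes the list's median was 2.14 on the first slide, 0.66 on the second and 0.67 on the third, and 0.92 without the CD27loCD11blo replicate 4 array. It was the highest of the 32 list medians over all 18 arrays, but not without that array, where the unfolded protein response list was highest at 1.13. Under quantile normalization the phosphatases described next were higher, at 1.06 against 0.93.

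The dual-specificity phosphatases, which switch off MAP kinases, had 7 of 7 positive, with 4 higher and 0 lower and a median of 0.89, or 1.25 above all genes. DUSP5 had a lowest, median and highest level of 2.73, 4.03 and 4.76 on CD27+ arrays, against 2.42, 3.05 and 3.67 on CD27lo arrays. On 6 of 9 CD27+ arrays it lay above all CD27lo arrays, and the difference was 0.82 ± 0.25. DUSP1 and DUSP2 also stand in the immediate early list. DUSP1 differed by 0.89 ± 0.41, DUSP10 by 1.02 ± 0.47 and DUSP2 by 1.41 ± 0.65. Relative to all genes the median of these phosphatases was 2.01, 0.73 and 0.06 on the first, the second and the third slide.

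Tissue residency genes had 8 of 13 positive and all 13 above the all-gene median, with 4 higher and 0 lower and a median 0.95 above all genes. CRTAM, an adhesion receptor of activated lymphocytes, had -0.48, 2.76 and 3.76 as lowest, median and highest on CD27+ arrays, against -0.01, 0.77 and 3.44 on CD27lo arrays. The groups overlapped, and the difference was 1.35 ± 0.45. LITAF, a lysosomal and inflammatory regulator, differed by 1.25 ± 0.48, RGS2, which dampens G protein signals, by 1.23 ± 0.48, and NR4A1, a relative of NR4A2, by 1.29 ± 0.51. The list shares members such as NR4A1 with the immediate early list. Relative to all genes the median of the residency list was 2.01 on the first slide, 0.21 on the second and 0.67 on the third.

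Unfolded protein response genes had 16 of 17 positive, with 6 higher and 0 lower, and a median of 0.81, or 1.17 above all genes. DNAJC3, described above, had the lowest p of them. PDIA6, a disulfide isomerase, had a lowest, median and highest level of -3.96, -1.87 and -0.51 on CD27+ arrays, against -7.56, -4.25 and -2.0 on CD27lo arrays. On 6 of 9 CD27+ arrays it lay above all CD27lo arrays, and the difference was 2.33 ± 0.65; it was well above background on 9 CD27+ and 6 CD27lo arrays. EIF2AK3, the gene of PERK, differed by 2.22 ± 0.70. Under normexp PDIA6 differed by 1.09 and EIF2AK3 by 1.15. Relative to all genes the list's median was 1.86 on the first slide, 0.93 on the second and 0.11 on the third. HSPA5, the chaperone BiP, differed by 0.81 ± 0.35. Heat shock genes had 9 of 13 positive, with 2 higher (HSPA5, in both lists, and HSPH1, a large Hsp70-type chaperone, 1.49 ± 0.55) and 0 lower.

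Genes of the basic machinery were also shifted relative to the rest. Oxidative phosphorylation genes had 21 of 25 positive, 8 higher and 0 lower, and a median of 0.59, or 0.94 above all genes. COX7A2 (1.37 ± 0.41) and COX4I1 (1.01 ± 0.34) encode cytochrome oxidase subunits, ATP5F1A (1.20 ± 0.37) the ATP synthase alpha subunit and SDHC (1.97 ± 0.62) a part of complex II. ATP5F1A lay above all CD27lo arrays on 8 of 9 CD27+ arrays.

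Ribosomal protein genes had 21 of 22 positive, 5 higher and 1 lower, and a median of 0.59, or 0.94 above all genes. Of the 22, 20 belong to the brightest level group, and relative to the medians of their own groups the list's median was 0.65. By slide, its offset from all genes was 1.31 on the first, 0.35 on the second and 0.59 on the third. RPS6 differed by 0.79 ± 0.28, RPL6 by 0.69 ± 0.27, RPS13 by 0.66 ± 0.25 and RPL11 by 0.58 ± 0.24. In glycolysis 7 of 8 were positive. HK1 (hexokinase) differed by 1.05 ± 0.44 and ALDOC, an aldolase best known from brain, by -1.19 ± 0.34.

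Apoptosis regulators had 14 of 19 positive, with 4 higher and 1 lower, and a median of 0.43, or 0.79 above all genes. BCL2A1, a survival gene that NF-kB induces, had a lowest, median and highest level of -1.60, 2.02 and 2.93 on CD27+ arrays, against -4.20, -0.13 and 0.90 on CD27lo arrays. On 7 of 9 CD27+ arrays it lay above all CD27lo arrays, and the difference was 1.95 ± 0.56, with 1.98, 1.71 and 2.24 on the first, the second and the third slide. The killer genes PMAIP1 (NOXA, 1.63 ± 0.71) and BCL2L11 (BIM, 1.5 ± 0.66) also had positive differences, of which that of PMAIP1 was 0.88 without CD27loCD11blo replicate 4, and the pore-forming BAK1 had a negative one (-0.77 ± 0.31). Members that favour survival and members that favour death were therefore both found among the higher ones.

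Interferon response genes had 9 of 17 positive, with 2 higher, GBP1 (1.24 ± 0.42) and IRF1 (0.91 ± 0.33), and 1 lower, OAS1 (-0.73 ± 0.33). Cell cycle genes had 10 of 19 positive, with 0 higher and 0 lower and a median of 0.00, which is 0.36 above all genes. None of the measured division genes thus reached an unadjusted p of 0.05.

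**Figure D5:**
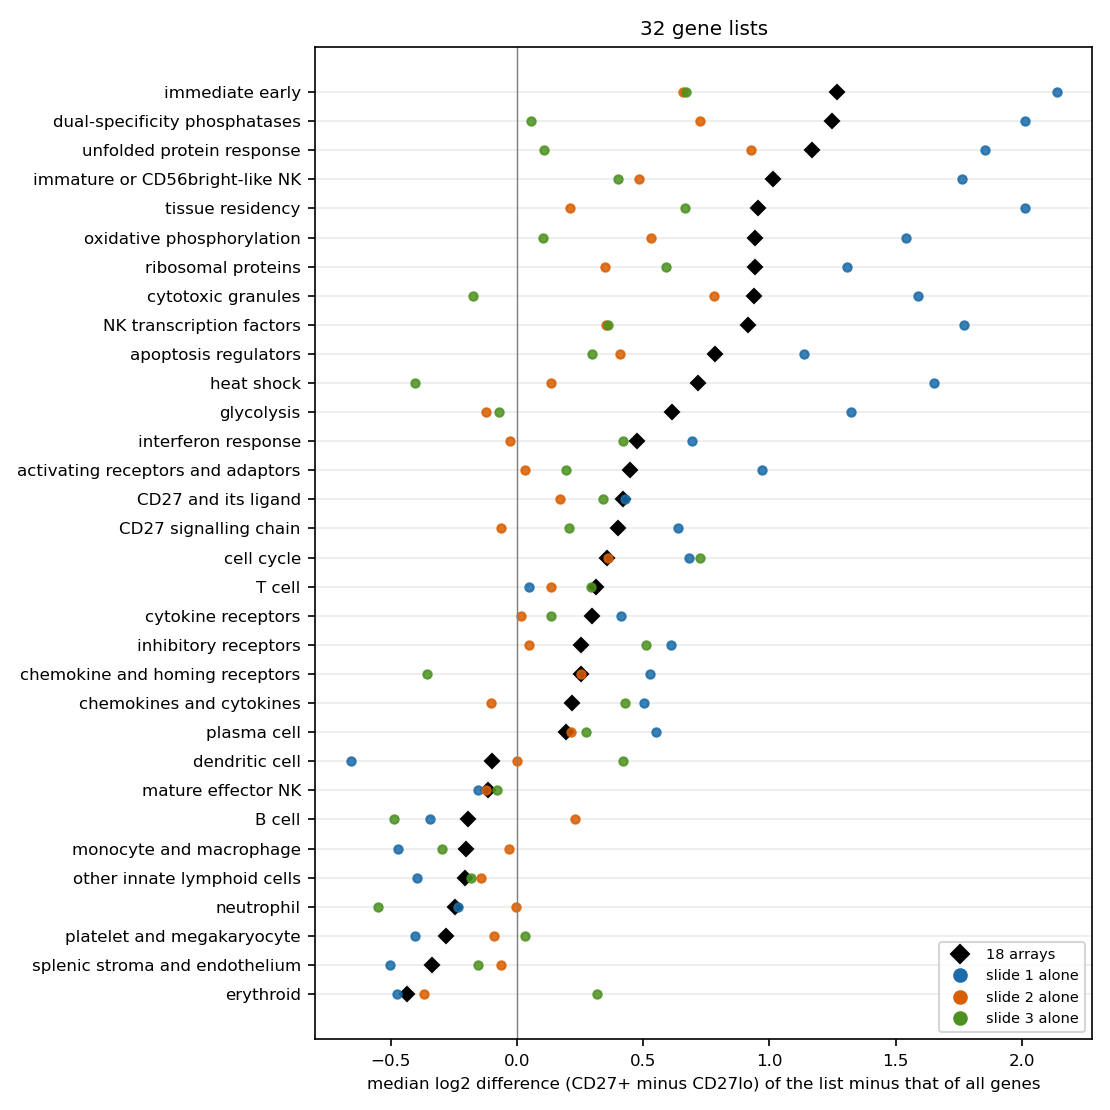
Median log2 difference (CD27+ minus CD27lo) of each of 32 gene lists minus that of all genes tested, over 18 arrays (diamonds) and on each slide alone (circles). Over 18 arrays immediate early genes are at 1.27 and the erythroid list at -0.43, ranks that other scalings change; most lists with a positive median are farther from 0 on the first slide than on the other slides.

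Of the 32 lists 23 had a median above and 9 below that of all genes, and none changed sign under quantile normalization, normexp correction or the deposited values. With single arrays left out the mature effector list alone changed sign. On single slides 32 kept their sign on the first, 27 on the second and 25 on the third. The cytotoxic, heat shock, glycolysis and homing lists were among those of opposite sign on the third slide, at -0.17, -0.40, -0.07 and -0.35.

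Markers of other cell types mostly had negative differences, and several lists lay below the all-gene median of -0.35. The median difference was -0.79 in the erythroid list, -0.69 in the stromal and endothelial list, -0.64 in the platelet list and -0.60 in the neutrophil list. Dim genes as a whole were also lower on CD27+ arrays, with a median difference of -0.65 in the dimmest level group. Relative to the medians of their members' own level groups, these 4 lists were at -0.27, -0.20, -0.34 and -0.12, in the same order. The part of the shift of dim genes in these lists was not tested. As sorted cells are measured in bulk, fewer cells of a type and less RNA per cell cannot be told apart either. The B cell list had 1 of 11 members positive, the monocyte and macrophage list 1 of 15, the dendritic cell list 1 of 10, and the neutrophil (12), erythroid (5) and platelet (9) lists 0. The splenic stroma and endothelium list had 2 of 15 positive, and 0 higher and 6 lower at an unadjusted p under 0.05. T cell genes had 4 of 9 positive, plasma cell genes 4 of 9 and genes of other innate lymphoid cells 3 of 15. The medians of these lists lay between 0.43 below and 0.31 above that of all genes.

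The summed level of the B cell list (log2 of the sum of linear levels) was 0.83 to 2.30 on CD27+ arrays and 0.84 to 3.43 on CD27lo arrays. For monocytes and macrophages it was 2.56 to 3.88 on CD27+ arrays and 3.38 to 3.85 on CD27lo arrays, and for stroma and endothelium 1.94 to 3.72 on CD27+ arrays and 2.37 to 3.46 on CD27lo arrays. The ranges overlapped in each. By the filter, each tested member was above background on 4 or more arrays.

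The brightest members were CD79B, a B cell receptor chain (difference -0.55 ± 0.29), the complement gene C1QB of macrophages (-0.49 ± 0.25), the haemoglobin chaperone gene AHSP of erythroid cells (-0.79 ± 0.28), the platelet integrin gene ITGA2B (-0.47 ± 0.24), the neutrophil elastase gene ELANE (-0.60 ± 0.32) and, in the T cell list, CD4 (-0.51 ± 0.26) and the T cell receptor adaptor gene TRAT1 (0.97 ± 0.42). SLAMF7 led the plasma cell list (-0.38 ± 0.49), THY1 the stromal list (0.64 ± 0.59) and GATA3 the innate lymphoid list (0.56 ± 0.41). GZMB, the brightest of the dendritic list, and SLAMF7 are also NK genes. Of lower p were DCN, a matrix proteoglycan of stroma (-1.43 ± 0.39, detected on 1 CD27+ and 6 CD27lo arrays), and the endothelial cadherin gene CDH5 (-0.86 ± 0.32). So were VSIG4 of red pulp and other tissue macrophages (-0.69 ± 0.25) and PAX5 of B cells (-0.94 ± 0.35). DCN would not have passed the detection filter on CD27+ arrays alone. In the B cell list 2 members were lower and 1 was higher at an unadjusted p under 0.05. The higher one was BANK1 (1.20 ± 0.55), which did not enter the checks of named genes further below. The part of these cells in the other results was not tested.

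The measured NK markers were detected, but detection cannot check the NK label. On average 86.6% of probes on CD27+ arrays and 90.9% on CD27lo arrays were well above background. CD79B, C1QB, AHSP, ELANE and CD4, markers of other cells, were so on all 18 arrays. NCR3, KLRD1, KLRB1, NKG7, PRF1, GZMB, EOMES, TBX21, CD247 and TYROBP were well above background on all 18 arrays, and NCR1 on 9 of 9 CD27+ and 8 of 9 CD27lo arrays. Of the gated-out markers CD3D had a matched probe, well above background on all 18 arrays, at -1.19 to 2.43 on CD27+ arrays and -0.82 to 2.76 on CD27lo arrays.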

How the data were processed

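RNA of sorted NK cells was measured on 1-colour Agilent arrays. The submitters' processing notes name Agilent Feature Extraction 10.7.1.1 and Partek. The array's genome build is not given in the sources used here. The processed signal of each spot is an intensity from which background was subtracted and spatial trend removed, per the file headers. The deposited matrix holds log2 values of the same arrays, quantile-normalized by their values, and served as an alternative.

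Spots marked as outliers (4 to 63 per array of 58839 that were not controls) were removed and spots of 1 probe averaged. Of 58659 probes, 20417 (34.8%) matched 12530 genes of the species' RefSeq table (T2T-MFA8v1.1) by accession. Probes well above background on at least 4 of 18 arrays were kept, and the brightest stood for its gene (12192 genes). For the 35 named genes with several probes past this filter, all probes of a gene had the same sign, though sizes could differ. The log2 processed signal minus the array's 75th percentile was modelled on CD27 and CD11b status in limma 3.58.1 (R 4.3.3; lmFit and a trended, robust eBayes), with no block and Benjamini-Hochberg adjustment over all genes. Single values were tested by exact permutation of CD27 labels within CD11b status (17640 arrangements, smallest p 0.000113). Scripts were tested on simulated data. Scanner files gave spot medians, not means, so normexp (offset 50) used medians.

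The comparison, the 32 gene lists and the named genes (CD27, the 12 of lowest p in each direction, up to 4 of lowest p per list, the brightest markers of other cells) were chosen with earlier results of these data known; PRF1, GZMB and EOMES were named as NK markers. Of 617 list genes 410 were tested, and lists are described by counts and medians only. Alternatives covered scaling, background correction, filters, probes, blocks, array signal, weights, slides and single arrays. The number of arrays limits the precision. One gene of the immature and homing lists enters their counts and is not reported here by name.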

Additional observations from a re-analysis of the deposited data

Results flagged for a closer look

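In the values named above, single arrays stood far from the other 8 of their group in 28 of 224 groups examined, by Dixon's 95% critical value; chance gives about 1 in 20. The CD27+CD11b+ replicate 4 array had a log2 signal of 7.49, against 9.68 for the next CD27+ array, and 67.9% of probes well above background. On it GZMK stood at 1.63, PRDM1 at -4.84, BCL2A1 at -1.60 and GATA3 at -2.0. The CD27loCD11blo replicate 4 array, whose CD27 level went against its label, had a log2 signal of 7.64, with FURIN at -2.46, RELA at -1.81, CD44 at -1.58 and PMAIP1 at -4.44. The next CD27lo value of PMAIP1 was 1.80.

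Some CD11b+ arrays recurred. CD27+CD11b+ replicate 3 stood apart for EOMES (-0.80), CRTAM (-0.48), BTG1 (0.67), ATP5F1A (-0.40), TRAT1 (0.067) and CD4 (1.97). CD27loCD11b+ replicate 4 stood apart for EDIL3 (-4.93), CD40 (-1.03), EOMES (3.16) and AHSP (1.40). CD27loCD11b+ replicate 5 stood apart for LITAF (-3.15), HSPA5 (1.66) and BCL2A1 (-4.20). The other values were DNAJC3 at -2.26 on CD27loCD11b+ replicate 1, GZMB at 4.01 on CD27loCD11blo replicate 2, FCER1G at 1.44 on CD27+CD11blo replicate 4 and DUSP1 at 6.02 on CD27+CD11blo replicate 1.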

How the results depend on the processing

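No gene passed adjustment under most alternatives, and those that gave calls were array weights (4394), the first slide alone (3764) and, with single arrays left out (0 to 38), the fit without CD27loCD11b+ replicate 4 (38) and that without CD27+CD11b+ replicate 1 (1). At an unadjusted p under 0.05 the count of 2688 genes became 12546 of 56918 with every probe tested, 6076 with array weights, 6009, 379 and 224 on the first, the second and the third slide alone, and 4361 without the third slide, a setting added after seeing the data. With single arrays left out it ran from 1840 to 4244, the highest without CD27loCD11b+ replicate 4, and was 4099 without CD27+CD11b+ replicate 3. The causes were not tested. In a further test added after seeing the data, the CD27 difference on the first slide minus that on the others passed for 0 genes (limma, lowest adjusted p = 0.148; 1429 at an unadjusted p under 0.05); slides also differ in animals, so these cannot be told apart. The CD11b term gave 0 calls with slide as a block.

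The CD27 transcript difference was 0.70 to 1.05 with single arrays left out, and 0.41 (limma, unadjusted p = 0.466) on the second slide and 0.23 (limma, unadjusted p = 0.773) on the third slide. The signal difference was 0.093 to 0.70 with single arrays left out, the highest without CD27+CD11b+ replicate 4 (exact permutation p = 0.0420), and -0.78 on the third slide. The difference in probes well above background was -5.72 to -1.89 percentage points, the first without CD27loCD11blo replicate 4 (exact permutation p = 0.0382), and 0.075 on the second slide. Differences of opposite sign on the second slide alone were TNFRSF1B -0.053, JAK1 -0.078, DUSP10 -0.10, PRF1 -0.029, GZMB -0.20, EOMES -0.30, TRAT1 -0.046 and THY1 -0.047. On the third slide alone they were TNFRSF18 0.30, CD40 0.11, GZMK -0.46, ADGRG1 0.094, SYK -0.49, NCR3 0.18, AHSP 0.35, ITGA2B 0.32, PRF1 -0.26 and GATA3 -1.07. Under normexp 14 of 110 named genes moved by over 1.5 times, all of them toward 0: besides those given above, STXBP2 -0.73, PRSS23 -1.15, CAMK4 -0.61, AREG 0.83, DCN -0.52 and PAX5 -0.58. With single arrays left out 8 did: PMAIP1 0.88 and SYK 0.99 without CD27loCD11blo replicate 4, IL21R -0.63 and THY1 0.36 without CD27+CD11blo replicate 1, GZMB 0.069 without CD27loCD11blo replicate 2, NCR3 -0.33 without CD27+CD11b+ replicate 1, GATA3 0.87 without CD27+CD11b+ replicate 4 and SLAMF7 -0.58 to -0.12 over 4 such arrays. The plasma cell list's offset from all genes ran down to 0.0084. Of the other named gene results under all settings, 3814 kept their direction and side of the threshold and 198 passed it.

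Same-numbered CD27+ and CD27lo arrays of one CD11b status had deviations correlated at -0.30 to 0.29. Among CD11blo cells replicates 1, 2 and 4 were at 0.29, 0.27 and 0.22. The best other-numbered CD27lo array was at 0.0091, 0.0051 and 0.043. CD11blo replicate 3 and every CD11b+ pair lay below the best other number. The best of several other arrays has an advantage over 1 same-numbered array, more so among CD11b+ cells, which have more arrays. This comparison therefore cannot decide whether pairs match. Each same-numbered pair shared a slide and a donor label. The main fit did not pair samples by number, and blocks served as alternatives. With a replicate block 0 genes passed and 2926 had an unadjusted p under 0.05 (limma). With a replicate block within CD11b status these were 0 and 2342, and with a replicate block and array signal 0 and 2555. With the donor label as a block they were 0 and 2985. Exchanging CD27 labels within same-numbered pairs, the -4.24 points in probes well above background had an exact permutation p of 0.0430. The block changed no other call. Dim genes were often below background on several arrays, and the part of array signal in this was not tested.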
